A study of Mus musculus with 6 samples.

Results

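Matrix metalloproteinases, ADAMTS proteases, ADAMTS-like proteins and TIMPs were described in mouse trigeminal ganglion, which holds the cell bodies of the sensory neurons of the head with their satellite glia, Schwann cells, vessels and connective tissue. They were selected by name, as the protein-coding genes with Mmp, Adamts, Adamtsl or Timp symbols. No measured value entered this rule, though earlier results of these data were known when the families were chosen. The rule found 39 genes among the 16415 listed, of which 14610 are protein coding: 13 Mmp, 17 Adamts, 5 Adamtsl and 4 Timp genes. RefSeq's gene table of GRCm38.p6 holds 51 genes under the same rule, and the other 12 were not analysed here. All 6 polyadenylated RNA libraries came from wild-type mice. Their labels name 2 treatments, NC-up and SETDB2-up, with 3 libraries each, and give no age, vector, promoter or targeted cell type. Nothing says that the libraries are separate animals, so each p-value measures only the spread between these libraries, which may be technical.

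Matrix metalloproteinases are zinc-dependent proteases that cut collagens, other matrix proteins and many cell-surface proteins. Most are made as inactive proenzymes. Some are secreted and others are held in the plasma membrane by a transmembrane segment or a lipid (GPI) anchor. ADAMTS proteases are secreted relatives with thrombospondin repeats that cut proteoglycans or trim procollagens, and ADAMTS-like proteins share the repeats but lack the protease domain. TIMPs are small secreted proteins that block the active site of these enzymes. In peripheral ganglia and nerve these genes are known for matrix turnover after injury and for shedding of adhesion proteins.

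The authors deposited read counts scaled by 1 factor for each library, from which whole reads could be recovered. Depth ran from 19334997 to 23501386 recovered reads. Setdb2 was higher in the libraries labelled SETDB2-up, at 113, 97.6 and 104 against 69.9, 58.4 and 71.5 normalised counts (log2 fold change 0.65, standard error 0.19, limma adjusted p = 0.0253). All 10 sensory neuron markers were measured, and their summed normalised counts were 237833 to 249225 in NC-up and 227732 to 238445 in SETDB2-up. Several marker lists of other tissues differed between the groups. Of 15 liver markers 14 were listed and 9 tested, and 7 of these rose and none fell. Their summed counts were 4259 to 5292 in NC-up against 7522, 10921 and 5391 in SETDB2-up libraries 1, 2 and 3. Trf made up most of the NC-up sums and did not pass, at 5219, 4192 and 4432 against 4559, 3972 and 5304. Alb was at 0 in NC-up against 1673, 3769 and 11.6. Keratinocyte markers (6 of 8 measured, 4 of the 5 tested fell) summed to 319, 680 and 698 against 276 to 280.2. Skeletal muscle markers (6 of 8, 3 fell) summed to 108 to 279 against 49.8 to 129, and cartilage and bone markers (7 of 9, 2 fell) to 891 to 1169 against 735 to 749.6. Fibroblast markers overlapped, at 27495 to 29389 against 27003 to 28319.9 (10 of 10 measured). These sums rest largely on Ngfr, which fell, at 14883 to 15011 against 12422 to 13563.5. Which cells the Ngfr reads came from was not tested, so the sums need not describe fibroblasts. Ogn rose, at 2425 to 2842 against 3623 to 3799. The part of these markers in the results on metalloproteinase genes was not tested.

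Per length, Timp2 and Timp3 stood above every enzyme, while Timp1 (1.55 RPKM) and Timp4 were among the lower levels. Levels between genes were compared as reads per kilobase of exon and per 1000000 listed reads (RPKM, computed here). Timp2 had the highest mean level of the 39 genes, at 282 RPKM over the 6 libraries, followed by Timp3 at 74.0, Mmp15 at 51.6 and Adamtsl5 at 28.01 RPKM. Mmp24 (14.4), Mmp14 (12.6) and Mmp25 (11.7) came next, and their values lay close to each other. Adamts5 led its family at 9.76 RPKM. The lowest levels were those of Adamts18 (0.146), Timp4 (0.231), Mmp13 (0.252) and Adamts12 (0.290). The 4 Timp genes summed to 333 to 379.9 RPKM per library, against 98.7 to 122 for the 13 Mmp genes, 37.2 to 42.0 for the 17 Adamts genes and 33.1 to 41.0 for the 5 Adamtsl genes. Mmp15 alone held 44.2% to 50.3% of the summed Mmp level, Timp2 76.1% to 81.2% of the Timp level and Adamtsl5 75.4% to 79.0% of the Adamtsl level.

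**Figure D1:**
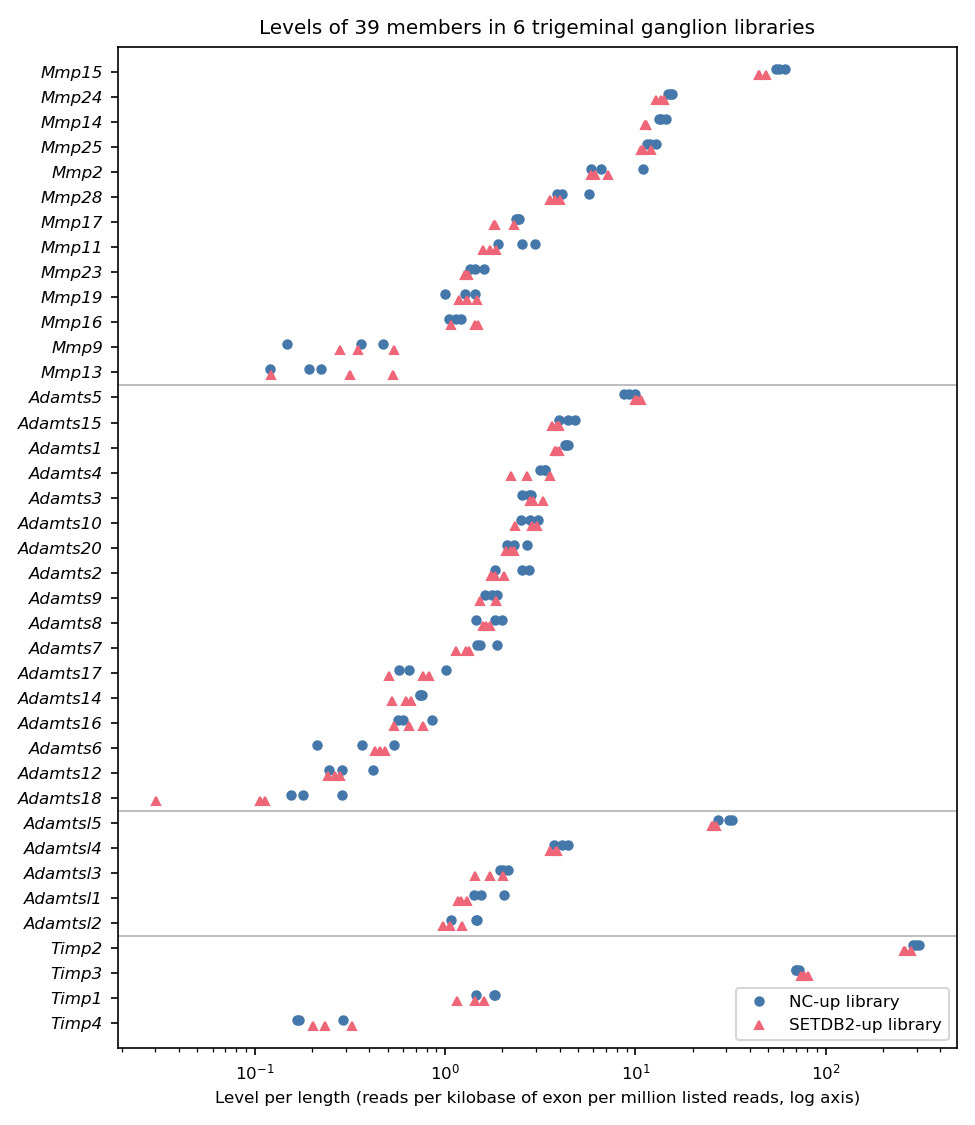
Level per length of the 39 genes in each library (x axis, RPKM, log scale), grouped by family with Mmp genes at the top; circles are the 3 NC-up and triangles the 3 SETDB2-up libraries. Single libraries span from 0.0302 RPKM for Adamts18 in SETDB2-up library 3 to 309 RPKM for Timp2 in NC-up library 2. In normalised counts, which are not plotted here, the groups overlap for 25 of the 39 genes.

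Of the 39 genes, 4 fell and none rose. All 39 genes passed the filter on low values and were tested with the 16387 genes of the table, at an adjusted p under 0.05. The genes that fell were Mmp14, Mmp15, Adamtsl1 and Adamtsl5, that is 10.3% of the members, where 8.71% of all tested genes fell, 7.71% rose and 16.4% changed in either direction. The members' share is thus close to the background. No member rose in limma or edgeR, where 2 and 1 were higher at an unadjusted p under 0.05, while DESeq2 called 1, Timp3. In the sign of the fold change 30 genes were lower and 9 higher, and the median log2 fold change was -0.17, against 0.00 over all tested genes. In 13 genes (33.3%) all 3 SETDB2-up values lay below all NC-up values, as they did in 16.4% of all genes, and in 1 gene, Timp3, all lay above (2.56%, against 16.8% of all genes). In bulk tissue fewer cells of a type and less RNA per cell cannot be told apart.

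**Figure D2:**
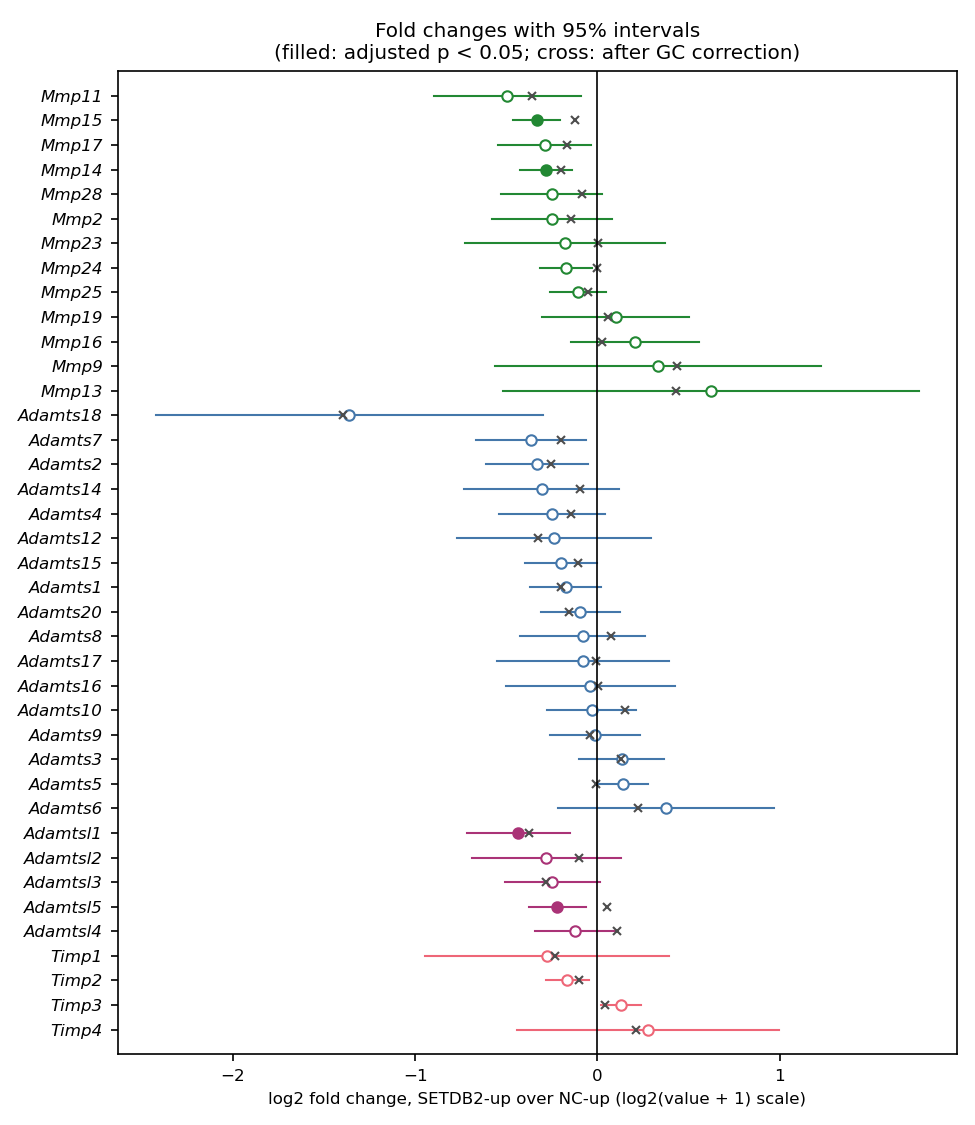
Log2 fold change (x axis, SETDB2-up over NC-up) of the 39 genes with 95% intervals from limma, grouped by family; filled points passed an adjusted p of 0.05 and crosses give the fold change after correction for GC content. The 4 filled points, Mmp15, Mmp14, Adamtsl1 and Adamtsl5, lie to the left of 0, and no cross is a called value.

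Fold changes followed base composition, and no member kept its call after correction for it. The members' longest transcripts have a median GC content of 54.0%, against 50.3% over all listed genes. Across the 39 genes the fold change fell with GC content (Pearson r = -0.43, Spearman rho = -0.50), and across 15513 genes Pearson's r was -0.41. These points share the same 6 libraries, and the correlations are descriptions. After the trend on GC content was removed from each library, 5.36% of 15513 genes changed and none of the 39 members did, the smallest adjusted p being 0.0710 (limma), for Mmp14, and 6 were lower at an unadjusted p under 0.05. The median log2 fold change of the members was then -0.08, with 25 lower and 14 higher. No member passed, too, in a fit without SETDB2-up libraries 1 and 2, the ones with the most liver transcripts, where 2.73% of all genes changed and the group is a single library whose spread is assumed to be that of NC-up. At an unadjusted p under 0.05, 5 members were lower in that fit.

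**Figure D3:**
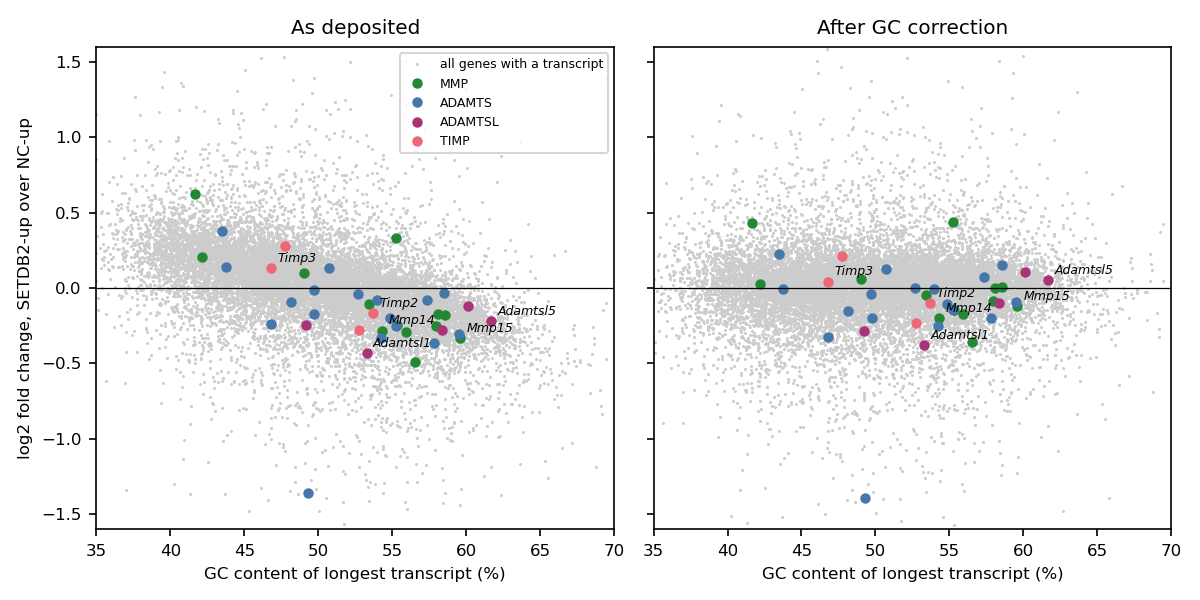
Log2 fold change (y axis, SETDB2-up over NC-up, shown from -1.6 to 1.6) against the GC content of the longest transcript (x axis, %), as deposited (left) and after GC correction (right); coloured points are the 39 members by family and grey points all genes with a transcript. The slope of the grey cloud (r = -0.41) and of the members (r = -0.43) is seen on the left, and the members' r is -0.05 on the right.

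Promoter sequences are shown for a choice of genes. They are Mmp14 and Mmp15, which fell, and Timp2 and Timp3, the most abundant inhibitors, of which the first lay lower and the second higher in SETDB2-up without overlap. Mmp13, a gene known for induction through AP-1, was added for its AP-1 site and had few reads. The set of promoter sequences used (GRCm38.p6) does not cover all members and held an annotated start for 25 of the 39 genes. Each line holds the 250 bases before it, 5′ to 3′ on the gene's own strand, for Mmp14 chr14:54431348-54431597 (plus strand), Mmp15 chr8:95352046-95352295 (plus), Timp2 chr11:118355412-118355661 (minus), Timp3 chr10:86300162-86300411 (plus) and Mmp13 chr9:7272264-7272513 (plus). Capitals mark 3 motifs searched on both strands: the GC box (GGGCGG or CCGCCC), the CACCC box bound by Krüppel-like factors (CACCC or GGGTG) and the AP-1 site (TGAGTCA or TGACTCA), where a GC box and a CACCC box may share bases.
Mmp14: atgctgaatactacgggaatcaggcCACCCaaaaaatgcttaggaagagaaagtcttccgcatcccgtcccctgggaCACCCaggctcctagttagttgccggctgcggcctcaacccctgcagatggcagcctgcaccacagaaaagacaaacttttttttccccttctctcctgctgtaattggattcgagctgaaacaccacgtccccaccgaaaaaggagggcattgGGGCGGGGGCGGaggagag
Mmp15: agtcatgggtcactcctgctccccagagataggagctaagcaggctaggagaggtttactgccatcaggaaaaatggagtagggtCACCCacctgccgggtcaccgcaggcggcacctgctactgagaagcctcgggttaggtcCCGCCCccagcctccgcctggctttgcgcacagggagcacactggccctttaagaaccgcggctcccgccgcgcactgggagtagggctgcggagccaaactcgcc
Timp2: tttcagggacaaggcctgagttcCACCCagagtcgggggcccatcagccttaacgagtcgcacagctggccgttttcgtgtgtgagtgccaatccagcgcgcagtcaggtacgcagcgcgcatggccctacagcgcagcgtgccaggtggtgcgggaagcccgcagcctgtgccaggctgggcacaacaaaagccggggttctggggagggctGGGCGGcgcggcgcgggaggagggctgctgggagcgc
Timp3: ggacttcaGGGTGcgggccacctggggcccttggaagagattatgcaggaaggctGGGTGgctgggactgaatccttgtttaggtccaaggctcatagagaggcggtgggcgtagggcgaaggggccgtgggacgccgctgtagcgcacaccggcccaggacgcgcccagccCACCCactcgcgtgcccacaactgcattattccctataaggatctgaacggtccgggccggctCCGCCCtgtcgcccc
Mmp13: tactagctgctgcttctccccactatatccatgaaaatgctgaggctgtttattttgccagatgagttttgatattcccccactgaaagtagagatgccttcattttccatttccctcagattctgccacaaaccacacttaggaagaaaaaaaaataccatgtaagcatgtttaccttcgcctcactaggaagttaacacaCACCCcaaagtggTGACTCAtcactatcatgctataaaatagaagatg

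Mmp14 held 2 GC boxes, which lie end to end near the start, and 2 CACCC boxes. Unlike those of the other genes shown, the bases after its annotated start were not found in a GENCODE transcript. Mmp15 and Timp2 held 1 of each box, and Timp3 held 1 GC box and 3 CACCC boxes. Adamtsl5, which also fell and whose window is not shown, held 1 GC box and 3 CACCC boxes. The bases after the Adamtsl5 start were not found in a GENCODE transcript either, and its window lies inside the gene's listed span. A GC box was found in 20 of the 25 member windows (80.0%) and in 32.9% of windows of the same length over 27025 genes. A CACCC box was found in 19 (76.0%), against 51.3%. Member windows had a median GC content of 65.2%, against 52.0% over all windows. The AP-1 site was in 1 member window, that of Mmp13, and in 4.43% of all windows. The 27025 genes were not limited to genes listed in these libraries or by gene type, whereas all members are listed and protein coding. The shares thus compare unlike sets. These matches describe the letters of the windows only.

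Both Mmp genes that passed, Mmp14 and Mmp15, encode transmembrane enzymes. Of the 6 genes for transmembrane or GPI-anchored enzymes 2 fell, where 8.71% of all genes did, and 5 had a negative fold change, as did 49.97% of all genes. In 4 of them all SETDB2-up values lay below all NC-up values, as in 16.4% of all genes. With Mmp23, whose structure is unusual and which is held in the membrane by its amino end until it is cut, these counts were 2, 6 and 5 of 7. Mmp15 (gene 17388, chromosome 8, 95352296 to 95374293, GRCm38), a transmembrane metalloproteinase, had 5737, 6530 and 6121 normalised counts in NC-up against 4664, 4737 and 5199 in the SETDB2-up libraries. Every SETDB2-up library lay below every NC-up library. The means were 6129 ± 397 and 4867 ± 289.9 (SD, n = 3 each), and Mmp15 differed by -0.33 on the log2 scale (standard error 0.06; 95% interval -0.46 to -0.20, limma adjusted p = 0.00134), or 20.6% lower. After GC correction it was -0.12 ± 0.05 (adjusted p = 0.172). Its transcript has a GC content of 59.6%.

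Mmp14 (gene 17387, chromosome 14, 54431598 to 54442456) encodes the membrane protease that, held with TIMP2, activates the proenzyme of MMP2. Its counts were 1235, 1186 and 1165 against 979, 968 and 999, so that the groups lay apart and the SETDB2-up libraries close together. The log2 fold change was -0.28 (standard error 0.07; limma adjusted p = 0.00873), 17.8% lower. After GC correction Mmp14 stood at -0.20 ± 0.06 (adjusted p = 0.0710), and without SETDB2-up libraries 1 and 2 at -0.26 (adjusted p = 0.216).

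The other transmembrane members were Mmp24 and Mmp16. Mmp24, known from neurons and from shedding of N-cadherin, had 1373, 1378 and 1336 against 1134, 1267 and 1227 normalised counts. The groups did not overlap, but the log2 fold change of -0.17 (95% interval -0.32 to -0.03) had an adjusted p of 0.0912 in limma, and it was 0.00 after GC correction. Mmp16, with a GC content of only 42.2%, had 108, 119.7 and 128 against 152, 149.5 and 112 (log2 fold change 0.21, 95% interval -0.14 to 0.56). Of the GPI-anchored enzymes, Mmp17 had 317, 316 and 327 against 237, 243 and 311, with SETDB2-up library 3 close to NC-up. Its log2 fold change of -0.29 (limma adjusted p = 0.110) became -0.41 without that library (adjusted p = 0.0222) and -0.04 without the other SETDB2-up libraries. Mmp25 had 1187, 1081 and 1136 against 1022, 1128 and 1011, overlapping, at -0.11 (95% interval -0.26 to 0.05).

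**Figure D4:**
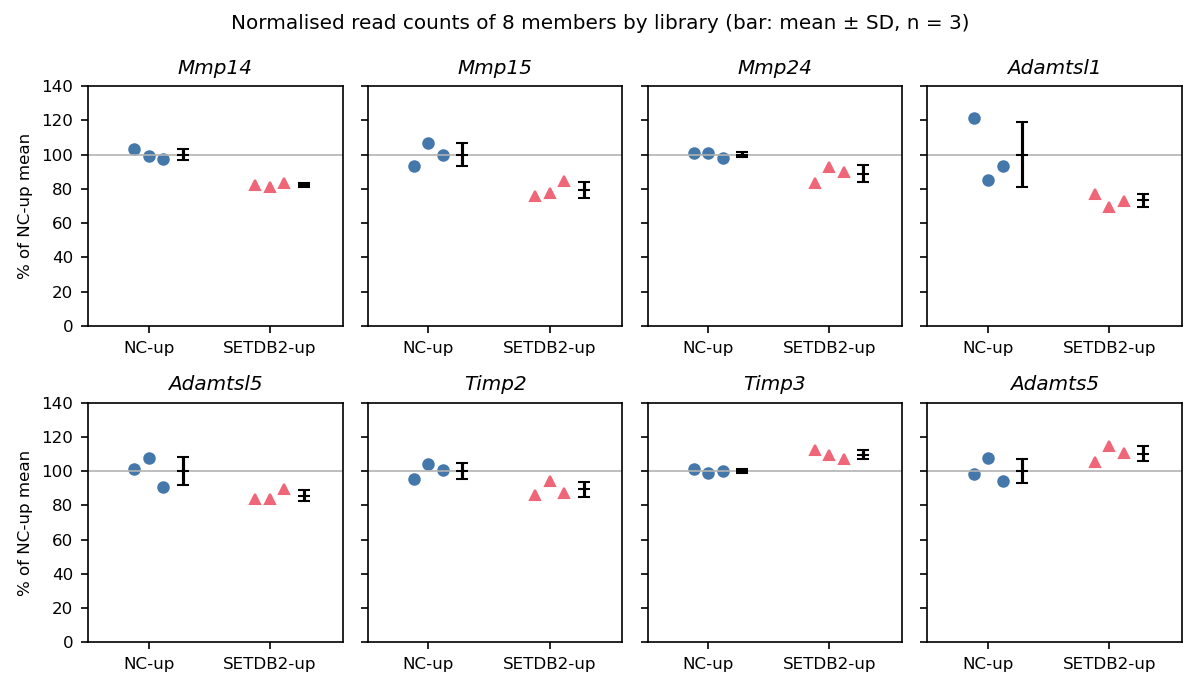
Normalised read counts of 8 members in each library as a percentage of the gene's NC-up mean (y axis), with circles for NC-up, triangles for SETDB2-up and bars for mean ± SD (n = 3). Mmp14, Mmp15, Mmp24, Adamtsl1, Adamtsl5 and Timp2 lie lower in all 3 SETDB2-up libraries and Timp3 lies higher, while the groups overlap for Adamts5.

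Neither gelatinase passed. Mmp2, the gelatinase that Mmp14 activates, had 694, 422 and 377 normalised counts in NC-up against 451, 389.6 and 376. NC-up library 1 stood above the rest, and the log2 fold change of -0.25 (95% interval -0.58 to 0.08) was 0.02 without it. Mmp9, the gelatinase of neutrophils and activated macrophages, had few reads: 29, 25 and 11 recovered reads in NC-up against 24, 35 and 21 in SETDB2-up. The interval of its log2 fold change was wide, from -0.56 to 1.23. Among 8 neutrophil markers 5 were measured and none passed in limma, with or without adjustment, with summed counts of 47.7 to 87.2 in NC-up and 70.3 to 116 in SETDB2-up.

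Mmp11, Mmp13, Mmp19 and Mmp28, the other secreted enzymes, were low and none passed. Mmp11, which furin activates inside the cell, had 139, 121 and 90.3 normalised counts against 80.7, 87.5 and 75.8. The groups did not overlap, and its log2 fold change of -0.49 (standard error 0.19; limma adjusted p = 0.0879) passed only without NC-up library 3 (-0.67, adjusted p = 0.0319). Mmp13, an interstitial collagenase, had 10, 7 and 14 recovered reads against 7, 29 and 20, too few to bound a change (95% interval of the log2 fold change -0.52 to 1.76). Mmp28 (-0.25) and Mmp19 (0.10) overlapped between the groups. Mmp23, which belongs to neither set, had 42.4, 40.2 and 48.3 against 38.9, 37.6 and 38.4 (log2 fold change -0.18, 95% interval -0.73 to 0.37).

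None of the 17 Adamts genes passed in limma, edgeR or DESeq2, where 1 was higher and 4 lower (limma), 4 lower (edgeR), and 1 higher and 3 lower (DESeq2) at an unadjusted p under 0.05. By sign 14 had a negative fold change, and in 4 all SETDB2-up values lay below all NC-up values, as in 16.4% of all genes, and in none above, as in 16.8%. The proteoglycanases, which cut aggrecan and versican, number 7 here. Adamts5, the most abundant of them, had 2036, 2238 and 1958.5 normalised counts against 2192, 2377 and 2299, with NC-up library 2 inside the SETDB2-up range. Its log2 fold change was 0.14 (95% interval 0.00 to 0.28, limma adjusted p = 0.151) and -0.01 after GC correction. Adamts1, which lies near Adamts5 on chromosome 16 on the same strand, had 444, 439 and 435 against 395, 387 and 386. Its replicates were close and the groups did not overlap, at a log2 fold change of -0.17 (95% interval -0.37 to 0.02, limma adjusted p = 0.217) and -0.20 after GC correction.

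The RPKM ratio of Adamts5 to Adamts1 within a library does not depend on the library's factor. It was 2.08, 2.31 and 2.04 in NC-up against 2.51, 2.78 and 2.69 in SETDB2-up (exact permutation test, two-sided p = 0.10, the smallest that 3 against 3 allows). This ratio was chosen after the values were seen, and the transcripts differ in GC content, at 43.7% and 49.7%. Another neighbouring pair, Adamts15 and Adamts8 on chromosome 9, had log2 fold changes of -0.20 (95% interval -0.40 to 0.00) and -0.08. Adamts20 (-0.09) and Adamts9 (-0.01) overlapped between the groups.

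Procollagen N-proteinases trim the amino end of fibrillar procollagens before fibrils form. Adamts2 had 413, 384 and 278 against 272, 306 and 265, overlapping through NC-up library 3. Its log2 fold change of -0.33 (standard error 0.13; limma adjusted p = 0.0957) passed without that library (-0.50, adjusted p = 0.0128). Adamts14 (-0.31) and Adamts3 (0.13) did not pass. Of the enzymes that bind cartilage oligomeric matrix protein, Adamts7 did not overlap (220.4, 182 and 176 against 158, 153 and 137), with a log2 fold change of -0.36 (standard error 0.14; limma adjusted p = 0.0928), and Adamts12 stood at -0.24. Adamts6 (0.38) and Adamts10 (-0.03), both tied to fibrillin microfibrils, overlapped.

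Adamts18 had the largest negative fold change of the 39 genes and nearly the fewest reads. Its recovered reads were 17, 22 and 38 in NC-up against 13, 13 and 4 in SETDB2-up, without overlap. The log2 fold change was -1.36 (standard error 0.51; 95% interval -2.42 to -0.30, limma adjusted p = 0.0736) and -1.39 after GC correction (adjusted p = 0.131). Adamts16 (-0.04) and Adamts17 (-0.08) were near 0, with intervals of -0.50 to 0.42 and -0.55 to 0.39.

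Of the 5 ADAMTS-like genes, all had negative fold changes, as did 49.97% of all genes, and 2 fell, where 8.71% of all genes did. Adamtsl1, which encodes a secreted matrix protein (gene 77739, chromosome 4, 85513852 to 86428390), had 349.6, 246 and 269 normalised counts against 222, 200.4 and 211. The groups lay apart, with NC-up library 1 the highest. The log2 fold change was -0.43 (standard error 0.13; limma adjusted p = 0.0338), 25.9% lower, and -0.38 after GC correction (adjusted p = 0.115). The call was also lost without NC-up library 1 (-0.29, adjusted p = 0.152), NC-up library 3 (-0.47, 0.0510), SETDB2-up library 1 (-0.47, 0.0884) or SETDB2-up library 2 (-0.40, 0.117).

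Adamtsl5, a fibrillin-binding member (gene 66548, chromosome 10, 80339793 to 80349030), had 1349, 1431 and 1209 against 1114, 1115 and 1189. NC-up library 3 and SETDB2-up library 3 were nearly level. Its log2 fold change of -0.22 (standard error 0.07) only just passed (limma adjusted p = 0.0495), and its transcript has the highest GC content of the 39, at 61.7%. After GC correction the fold change turned to 0.05 (adjusted p = 0.730). It lost its call without NC-up library 1 (-0.21) or 2 (-0.16), or SETDB2-up library 1 (-0.20) or 2 (-0.20), at adjusted p between 0.110 and 0.208. It also lost it with a pseudocount of 0.1 (adjusted p = 0.0503), with no filter (0.0504) and in limma-voom (0.0533). Adamtsl2 (-0.28), Adamtsl3 (-0.25) and Adamtsl4 (-0.12) did not pass in limma.

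None of the 4 inhibitors passed in limma on the deposited values, where 1 was higher and 1 lower at an unadjusted p under 0.05, and their 2 abundant members had opposite signs. Timp2 (gene 21858, chromosome 11, 118301061 to 118355411), which blocks many metalloproteinases and takes part in the activation of MMP2, had 21830, 23825 and 23122 normalised counts in NC-up against 19749, 21642 and 19985 in SETDB2-up. NC-up library 1 was only just above SETDB2-up library 2. The means were 22925 ± 1012 and 20459 ± 1032 (SD, n = 3 each), with a log2 fold change of -0.16 (standard error 0.06; 95% interval -0.28 to -0.05, limma adjusted p = 0.0550). It passed in edgeR (-0.17, adjusted p = 0.0397), DESeq2 (-0.17, adjusted p = 0.0185) and limma-voom (-0.17, adjusted p = 0.0292) on recovered reads and in limma with a replicate block (adjusted p = 0.00328), and stood at -0.10 after GC correction (adjusted p = 0.299).

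Timp3 (gene 21859, chromosome 10, 86300412 to 86349505), which binds to the matrix and also blocks ADAMTS aggrecanases, had 6993, 6849 and 6902 against 7758, 7559 and 7388. It was the sole member with every SETDB2-up library above every NC-up library. The log2 fold change was 0.13 (standard error 0.05; 95% interval 0.02 to 0.24, limma adjusted p = 0.0959), with DESeq2 at an adjusted p of 0.0472, and 0.04 after GC correction. Within libraries the RPKM ratio of Timp3 to Timp2 was 0.252, 0.226 and 0.234 in NC-up against 0.309, 0.274 and 0.290 in SETDB2-up, without overlap (exact permutation test, two-sided p = 0.10, the smallest possible). It was chosen after the values were seen, and the GC contents are 46.8% and 53.7%.

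Timp1, the inhibitor that injury and inflammation induce, had 31, 28 and 38 recovered reads in NC-up against 22, 29 and 30 in SETDB2-up (log2 fold change -0.28, 95% interval -0.95 to 0.39). Timp4 had 33, 22 and 23 against 41, 28 and 28 (0.28, -0.44 to 0.998). Timp1, Timp3 and Timp4 each lie inside a synapsin gene on the opposite strand, Syn1, Syn3 and Syn2 in that order. Syn1 had 8089 normalised counts in NC-up library 1 and Syn2 had 3634, far above the Timp1 and Timp4 values of 32.8 and 34.96, and the sources used here do not state the strand setting of the counter, so reads of Timp1 and Timp4 are uncertain. Syn3, at 388 in that library, is far less abundant than Timp3. Syn2 fell (log2 fold change -0.18, limma adjusted p = 0.0464), where Timp4 had a positive sign. Syn1 (-0.14) had the sign of Timp1 and did not pass, and Syn3 (0.12) had that of Timp3.

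Genes that act with these enzymes were counted from the same test, beside 16.4% of all genes that changed. Among regulators of plasmin, a protease that can activate metalloproteinase proenzymes, 5 of 9 tested genes rose and none fell. Serpine2, an inhibitor of plasminogen activators and thrombin, had 1973, 1820 and 1927 against 2298, 2208 and 2242 (log2 fold change 0.24, standard error 0.06, limma adjusted p = 0.0117). Serpini1 (0.32), the neuronal serpin, and Anxa2 (0.20), a plasminogen receptor subunit, rose too, and Plau also passed. Plg, plasminogen itself, had 1.06, 0 and 0 against 25.6, 90.5 and 1.78 and is also a liver marker, whose summed counts differed between the groups as above. After GC correction 2 of the 9 rose, Anxa2 (0.25) and Plg. Single libraries decided 3 of these calls, and Plau was not checked in this way. Serpine2 lost its call without NC-up library 2 (0.21) or SETDB2-up library 1 (0.22), Anxa2 without NC-up library 1 (0.19) or 2 (0.17) or SETDB2-up library 1 (0.21), and Plg without SETDB2-up library 1 (3.65) or 2 (2.76).

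Among activators and other inhibitors 1 of 11 rose and 2 fell. Furin, the proprotein convertase that activates membrane-type enzymes and Mmp11, had 1915, 1724 and 1645 against 1305, 1494 and 1632 (log2 fold change -0.26, standard error 0.08, limma adjusted p = 0.0348), with library 3 of each group nearly level, and -0.08 after GC correction. A2m, a broad protease trap, rose (0.29) and the integrin subunit Itgb3 fell (-0.31). Without single libraries the calls were lost for Furin (-0.17 without SETDB2-up library 1), A2m (0.24 without the same library) and Itgb3 (-0.28 without NC-up library 1), among others. Reck, a membrane-anchored inhibitor, did not pass (0.16). Of 11 ADAM genes, membrane proteases or their inactive relatives, Adam22 rose (0.24), Adam11 (-0.24) and Adam15 (-0.18) fell, and after GC correction Adam11 stood at -0.01 and Adam15 at 0.03. Without SETDB2-up library 1 all 3 of these calls were lost (Adam22 0.21, Adam11 -0.19, Adam15 -0.16). After GC correction Adam10, a major sheddase, was the 1 gene of the list that was called (-0.20, limma adjusted p = 0.0293). It is named here after its value was seen.

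In procollagen processing 3 of 12 fell and none rose. Loxl1, a lysyl oxidase of elastic fibres, had 221, 214 and 174 against 95.9, 101 and 139 (log2 fold change -0.87, standard error 0.17, limma adjusted p = 0.00189) and kept its call after GC correction (-0.61, adjusted p = 0.0322), but not without SETDB2-up libraries 1 and 2 (-0.53, adjusted p = 0.290). Bmp1, a procollagen C-proteinase (-0.29), and its enhancer Pcolce (-0.28) fell, stood at -0.12 and -0.09 after GC correction, and lost their calls without NC-up library 1 (-0.25 and -0.22), among other libraries. Among substrates 5 of 18 fell and none rose, with a median log2 fold change of -0.19. They were the collagen chains Col1a1, Col1a2 and Col3a1, fibronectin (Fn1, -0.32) and the brain proteoglycan Bcan, and Col1a1 (-0.36) and Col1a2 (-0.24) remained called after GC correction and in all the other 15 alternatives. Col3a1 (-0.26) and Fn1 (-0.29) lost their calls without NC-up library 1, among other libraries. Bcan (-0.21, limma adjusted p = 0.0344) turned to 0.03 after GC correction (adjusted p = 0.804). The aggrecanase substrates Vcan (0.20) and Acan (-0.72, counts of 25.4, 51.7 and 42.9 against 25.6, 27.5 and 17.0) did not pass.

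Of the 15 microfibril partners of the ADAMTS-like proteins 6 fell and 1 rose, or 2 and 1 after GC correction. The gene that rose, Thsd4, encodes a further ADAMTS-like protein under a different symbol, so the name rule did not select it. It had 344, 257 and 313 normalised counts against 449, 426 and 449.7, without overlap, and its log2 fold change was 0.54 (standard error 0.11; limma adjusted p = 0.00308) and 0.58 after GC correction (adjusted p = 0.00485). The call was lost only without SETDB2-up libraries 1 and 2 (0.57, adjusted p = 0.117), among 16 alternatives. Mfap4, a microfibril-associated glycoprotein, had 131, 162 and 151 against 57.9, 58.0 and 97.3 (-1.09, standard error 0.21, limma adjusted p = 0.00161; -1.02 after GC correction). Without SETDB2-up libraries 1 and 2 Mfap4 stood at -0.60 (adjusted p = 0.306). Ltbp3, a latent TGF-beta binding protein (-0.29), and Emilin1, an elastic-fibre glycoprotein (-0.66), fell and did not pass after GC correction (-0.02 and -0.41).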

How the data were processed

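Tissue RNA was isolated with TRIzol, enriched for polyadenylated transcripts, made into strand-specific libraries and sequenced in pairs on a NovaSeq, per the labels' protocols. FastQC, HISAT2 and GRCm38 come from the submitters' processing notes. The sources used here do not state the counter, its strand setting, the annotation or the filter on low genes. The deposited signal is a read count that the authors divided by 1 factor per library, since 100% of values are whole multiples of a library's step (tolerance 0.001 read). Depth was 19334997 to 23501386 recovered reads, at which 3 reads are 0.128 to 0.155 CPM.

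Limma 3.58.1 (R 4.3.3) with a mean-variance trend was fitted on log2(value + 1) over all genes that reached 1 in 3 or more libraries (28 were dropped), with Benjamini-Hochberg adjustment. Such folds understate changes of low genes. Whole reads went to edgeR 4.0.16 (quasi-likelihood, TMM), DESeq2 1.42.0 and limma-voom as alternatives, of which edgeR called 2695 genes. Length (union of basic exons) and GC content (longest transcript) came from GENCODE M21 for 15541 genes (94.7%). GC correction removed a loess trend (span 0.3) per library. The other alternatives were a pseudocount of 0.1, no filter or a minimum of 10, a replicate block, each library left out, SETDB2-up libraries 1 and 2 left out, and genes under an opposite-strand gene with at least 4 times the reads left out. Scripts were tested on simulated data. No 2 libraries were duplicates (chi-square over genes divided by its degrees of freedom was 3.97 to 9.94 within groups).

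The gene families and lists were chosen with earlier results of these data known. Genes named with values were those past the threshold, the Timp genes, the 5 highest per family by length and up to 4 per further list. Others are named beyond this rule, after their values were seen. The account of Adamts4 is not reported here.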

Additional observations from a re-analysis of the deposited data

How the results depend on the processing

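After GC correction 0 members fell, 277 genes rose and 554 fell over the whole table, and 3 and 6 did in the further matrix lists. With GC correction and the replicate block together these were 2 members falling (Mmp14 and Adamtsl1) and 717 genes rising. Without SETDB2-up libraries 1 and 2 they were 0 members, 146 and 301 genes, and 2 and 4 in the lists. Timp3 made 1 member that rose in DESeq2 and with the replicate block. Leaving out single libraries gave 2 members falling (without NC-up library 1 or SETDB2-up library 1) to 6 and 0 to 1 rising (Timp3, without SETDB2-up library 3), 414 (without SETDB2-up library 1) to 1528 genes rising and 668 to 1807 falling, and 2 to 8 rising and 8 to 20 falling in the lists.

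Whether the replicate numbers pair the libraries is not stated and was not settled here. Deviations of same-numbered libraries correlated at 0.0383, 0.0359 and 0.0484, and those of differently numbered libraries at -0.0347 to -0.00557. Each library thus correlated best with its own number, though weakly. The block raised members falling from 4 to 6, with Timp2 and Adamts2 added, and genes rising or falling to 1695 and 1923.

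Fold changes that turned after GC correction, with or without the block, were those of Adamts10 (0.15), Adamts16 (0.00143), Adamts5 (-0.00912), Adamts8 (0.0735), Adamtsl4 (0.11), Adamtsl5 (0.0520), Mmp23 (0.00545) and Adam15 (0.0312). Without SETDB2-up libraries 1 and 2 those of Adamts4 (0.12), Mmp16 (-0.0722), Mmp19 (-0.0304) and Mmp9 (-0.0521) did. With single libraries left out the range included 0 for Adamts10 (-0.102 to 0.0756), Adamts16 (-0.162 to 0.135), Adamts17 (-0.236 to 0.153), Adamts8 (-0.206 to 0.00698), Adamts9 (-0.0698 to 0.0745), Mmp19 (-0.0332 to 0.209), Mmp2 (-0.421 to 0.0181) and Mmp9 (-0.124 to 0.651). Of 624 member values under alternatives, 562 kept direction and side of the threshold, 19 lost a call, 13 gained one and 30 turned. The cause was not tested. Reads limit Mmp9, Mmp13, Timp1, Timp4 and Adamts18.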
